A study of Mus musculus with 2 samples.

Results

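Mitochondrial ribosomal protein genes encode the protein part of the ribosome that works inside mitochondria. They were taken as every gene of the deposited table whose symbol starts with Mrpl or Mrps followed by a digit, without symbols holding -ps, which mark pseudogenes. This gave 78 of the 15239 genes listed, 49 of the large subunit (Mrpl) and 29 of the small subunit (Mrps). All 78 are protein coding in GENCODE M21, they lie on 17 chromosomes, and all passed the filter used here, an average level of 1 FPKM or more.

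The samples were mouse mammary basal cells, the outer, partly contractile layer of the gland's epithelium, labelled as normal mammary gland tissue. The Cdk14-sh library carried a short hairpin RNA against Cdk14, a cyclin-dependent kinase active at the cell membrane, and the Scramble control library carried a scrambled hairpin. Each group held 1 library, so no test was possible, no p-value is given and every comparison is between these 2 libraries, not between conditions. The labels give no strain, age, number of animals, vector, time after transduction or other allele. The series' design text names a human breast cancer line and the extraction protocol names retinas, whereas the identifiers are mouse genes and the sample labels were followed.

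The table corresponded to totals of 10177185 reads for Cdk14-sh and 10186924 reads for Scramble control, and held no gene at 0. Cdk14 itself stood at 0.713 FPKM in Cdk14-sh against 2.06 FPKM in Scramble control, or 34.5% of the Scramble control level (25.6 to 45.3). Parentheses after a fold or percentage hold the 95% interval for counting error alone. All 12 basal markers looked for were measured, with a summed level of 2684 FPKM in Cdk14-sh and 3208 FPKM in Scramble control, and 6 were above 0 in log2 ratio and 6 below. The basal transcription factor Trp63 was 2.83-fold higher and the contractile marker Cnn1 3.37-fold lower. Markers of other cell types differed between the libraries. The 9 listed endothelial markers summed to 48.0 FPKM in Cdk14-sh and 212 FPKM in Scramble control. Of these markers, 7 were at least 2-fold lower, against 13.5% of measured genes. The 7 listed immune markers summed to 388 FPKM in Cdk14-sh and 108 FPKM in Scramble control. Antigen presentation genes (H2-Aa, H2-Ab1, Cd74) carried the immune sum. Csf1r was also higher, at 4.23 FPKM in Cdk14-sh against 1.04 FPKM in Scramble control. Cd68 was higher by less, at 32.0 FPKM in Cdk14-sh against 25.8 FPKM in Scramble control. The leukocyte marker Ptprc was lower, at 0.247 FPKM in Cdk14-sh and 0.482 FPKM in Scramble control. So was Coro1a, at 1.06 FPKM in Cdk14-sh and 2.61 FPKM in Scramble control. The part of these differences in the results below was not tested. In bulk RNA, fewer cells of a type and less RNA per cell cannot be told apart.

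The mitochondrial ribosome is built from ribosomal RNAs made inside the organelle and from proteins that are encoded in the nucleus, made in the cytosol and imported. It translates the few messengers of mitochondrial DNA, which encode membrane subunits of the respiratory chain and of ATP synthase. Many of its proteins descend from bacterial ribosomal proteins, and others are found only in mitochondria. The small subunit reads the messenger, and the large subunit forms peptide bonds and feeds the new chain to the inner membrane.

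Most mitochondrial ribosomal protein genes were higher in the Cdk14-sh library. Ratios were taken on the log2 scale after adding 1 FPKM to each value, Cdk14-sh over Scramble control, and were above 0 for 59 of 78 members, or 75.6%, against 51.4% of the 12819 measured genes. Its median was 0.51 over the members and 0.02 over all measured genes. The share of 51.4% is also the baseline for each count above 0 below, where no other is given. At least 1.5-fold higher on this scale were 33 members, or 42.3%, against 25.3% of measured genes. At least 1.5-fold lower were 6 members, or 7.69%, against 24.5% of measured genes. At least 2-fold higher were 18 members (14.3% of measured genes) and at least 2-fold lower was 1 member, Mrpl1 (13.5% of measured genes). By counting error alone, the interval of the FPKM ratio lay above 1 for 48 members and below 1 for 11, and held 1 for the remaining 19. The matching shares of all measured genes were not computed, so these interval counts have no baseline. The summed level of all members was 1612 FPKM in Cdk14-sh and 1293 FPKM in Scramble control.

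Over all their genes, the small subunit had the higher median, mean and share above 0, with wide overlap between the subunits. Of the 29 Mrps genes, 25 lay above 0 in log2 ratio, with a median of 0.55 and a range of -0.34 to 1.51. Of the 49 Mrpl genes, 34 were above 0, with a median of 0.38 and a range up to 2.74 with Mrpl1 lowest. All 6 members that were at least 1.5-fold lower were Mrpl genes, as were the 6 members with the highest ratios. The difference of the subunit medians, large minus small, was -0.17, and the means were closer, at 0.48 for the large and 0.54 for the small subunit. Since genes are not replicates, this difference was not tested.

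Summed levels also had the higher ratio in the small subunit. Mrps genes summed to 618 FPKM in Cdk14-sh and 460 FPKM in Scramble control, a ratio of 1.34. Mrpl genes summed to 994.8 FPKM in Cdk14-sh and 833 FPKM in Scramble control, a ratio of 1.19. In recovered reads, the small subunit's total was 13982 in Cdk14-sh and 10152 in Scramble control, 1.38-fold higher (1.33 to 1.43). The large subunit's total was 24239 reads in Cdk14-sh and 20799 in Scramble control, 1.17-fold higher (1.14 to 1.20). These totals lean on abundant members: Mrpl32 alone held 2543 reads in Cdk14-sh and 4139 in Scramble control. The large subunit thus made up 61.7% of the summed member FPKM in Cdk14-sh and 64.4% in Scramble control.

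**Figure D1:**
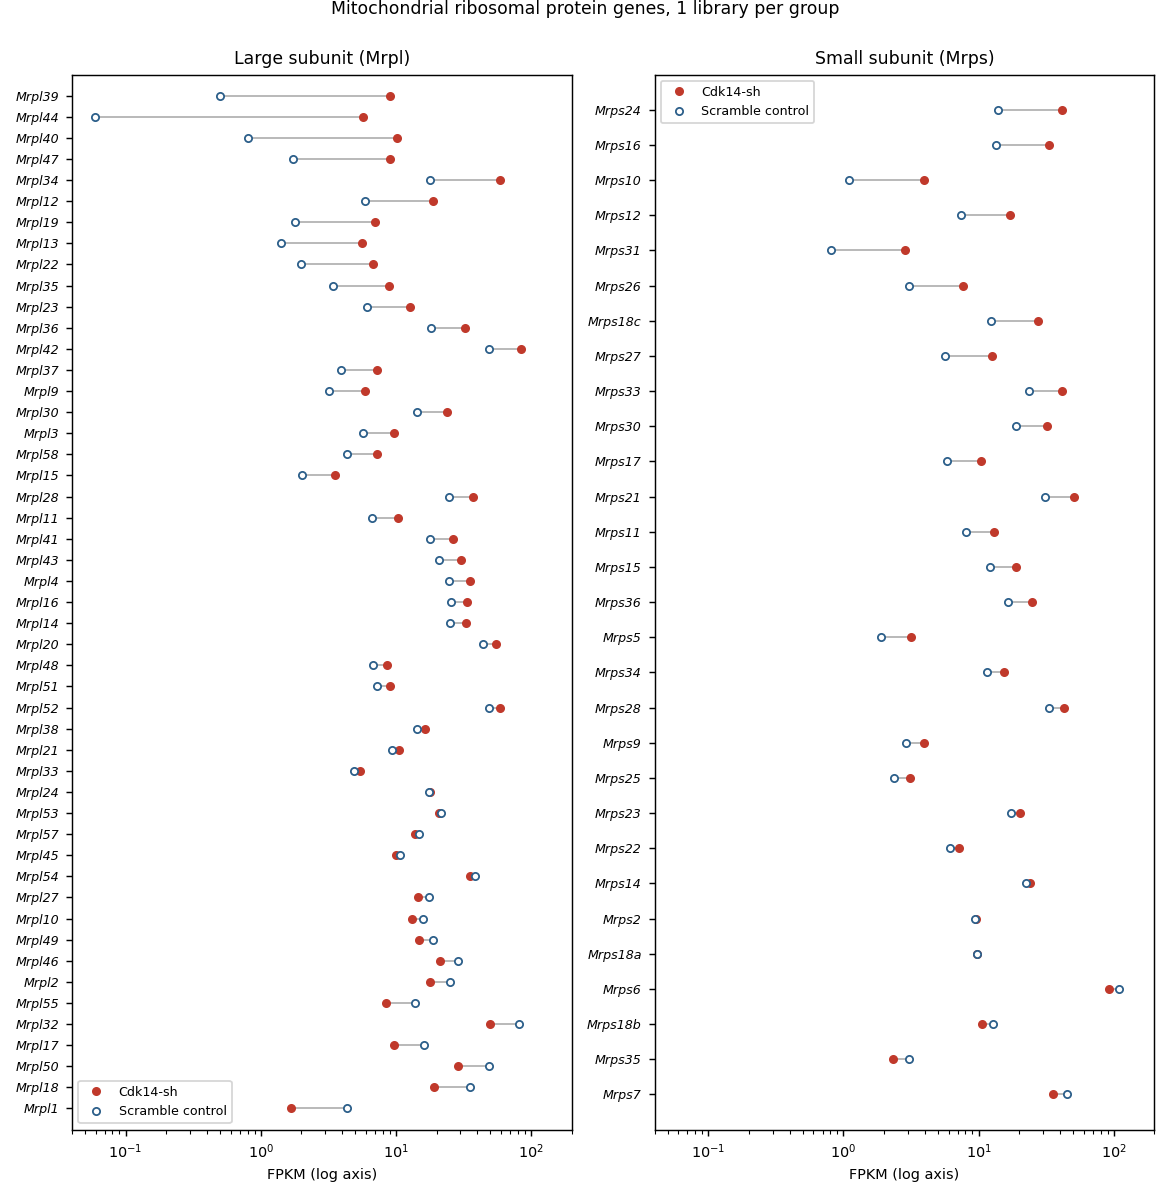
FPKM of each member (log axis) in Cdk14-sh (filled) and Scramble control (open), 1 library each, ordered by log2 ratio from the highest at the top, for the large subunit (left) and the small subunit (right). The longest gaps belong to large subunit genes that were below 1 FPKM in Scramble control, such as Mrpl44 at 5.71 FPKM in Cdk14-sh against 0.0597 FPKM.

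Levels of the members also lay closer together in Cdk14-sh. In that library no member was below 1 FPKM and 8 were below 5 FPKM, whereas in Scramble control 4 were below 1 FPKM and 21 below 5 FPKM. The SD of log2(FPKM + 1) over the 78 members was 1.15 in Cdk14-sh and 1.44 in Scramble control, while over all measured genes it was 1.82 in Cdk14-sh and 1.81 in Scramble control. Nuclear genes of the respiratory chain and ATP synthase also had a smaller SD in Cdk14-sh, at 1.16 against 1.24 in Scramble control. Cytosolic ribosomal proteins had nearly the same SD in each, 1.36 in Cdk14-sh and 1.37 in Scramble control. For the large subunit the SD was 1.08 in Cdk14-sh and 1.49 in Scramble control. For the small subunit it was 1.29 in Cdk14-sh and 1.37 in Scramble control. Without the 3 members that had fewer than 20 reads in either library, the SD was 1.16 in Cdk14-sh and 1.33 in Scramble control.

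The order of levels was largely kept. Spearman's rho between the libraries was 0.88 across the 78 genes, a description only, since genes of the same libraries are not independent. Mrps6 was the most abundant member in each library, and the least abundant was Mrpl1 in Cdk14-sh (1.67 FPKM) and Mrpl44 in Scramble control. Among members with a mean of 1 to 5 FPKM, 12 of 14 had a ratio above 0 (49.5% of measured genes in that range) with a median of 0.91. From 5 to 15 FPKM it was 22 of 28 (50.2%), with a median of 0.47, and from 15 to 30 FPKM 16 of 22 (52.5%), with a median of 0.38. At 30 FPKM or more it was 9 of 14 (56.9%), with a median of 0.34. The shares of members were above those of measured genes in all 4 ranges. The lower medians at higher levels did not hold in both subunits. From the lowest range to the highest, the large subunit's medians were 1.42, 0.43, 0.11 and 0.31, and the small subunit's were 0.43, 0.51, 0.68 and 0.36. The large subunit thus had the higher median at 1 to 5 FPKM and the small subunit in the other ranges. At 30 FPKM or more, 6 of 9 large and 3 of 5 small subunit genes were above 0.

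**Figure D2:**
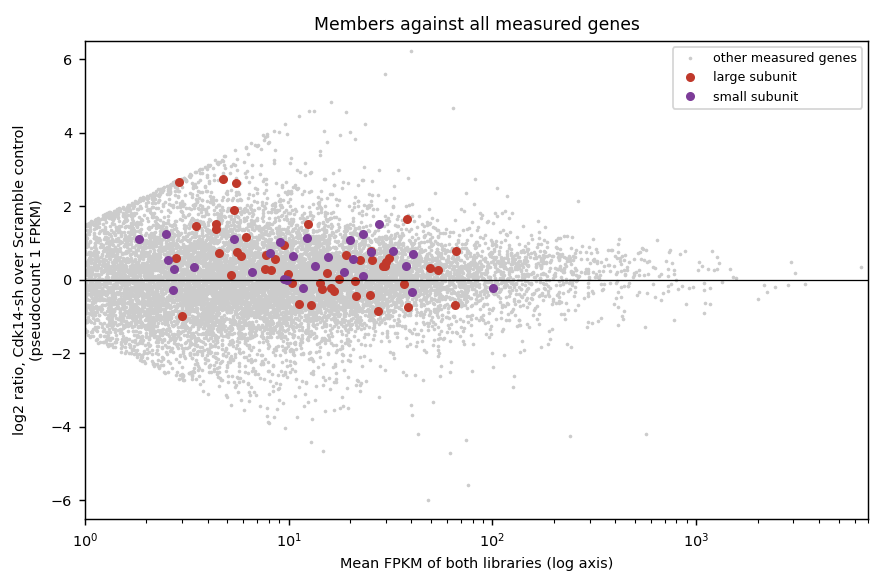
Log2 ratio of Cdk14-sh over Scramble control (pseudocount 1 FPKM) against the mean FPKM of both libraries (log axis) for all 12819 measured genes (grey), large subunit genes (red) and small subunit genes (purple). Of the 78 members, 59 lie above the line at 0, and 3 large subunit genes of low mean have ratios above 2.

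Promoters of the members were searched for letters of known regulatory motifs, because such genes are known to be controlled by nuclear respiratory factor 1 (NRF1) and by ETS factors such as Gabpa. RefSeq promoters (GRCm38.p6, 250 bases before to 50 after the start) were found for 69 of 78 members, and all motifs were searched on both strands. The NRF1 motif GCGCANGCG was in the promoters of 16 members (23.2%), against 6.25% of all 32851 promoters and 16.0% of the 8118 measured genes with a promoter. The ETS motif CCGGAAG was in 26 (37.7%), against 8.86% of all promoters and 20.4% of those measured genes. The YY1 motif AAGATGGCG was in 8 members (11.6%), against 1.40% of all promoters and 3.92% of those measured genes. The letters TATAAA were in 5 members (7.25%), against 13.6% of all promoters and 8.50% of those measured genes. CACGTG was in 5 members (7.25%), against 7.15% of all promoters and 12.1% of those measured genes. CCAAT was in 27 members (39.1%), against 37.4% of all promoters and 42.3% of those measured genes. Members with and without the NRF1 motif had the same median log2 ratio, 0.53. With 1 further C required at the end of the motif, 13 members held it, with a median of 0.68 against 0.53 for those without it, so the difference depends on how the motif is written. Members with the ETS motif had a median of 0.29 against 0.55 for those without it, while over all measured genes the medians were 0.14 with it and 0.01 without it. For the YY1 motif the members' medians were 0.78 with it and 0.38 without it, for CACGTG 0.75 and 0.53, for CCAAT 0.58 and 0.34, and for TATAAA 0.38 and 0.53. None of these splits was tested.

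Stretches around the NRF1 motif are shown for the members at either end of the range, because genes that carry it stand at both. Of the 16 members with the motif, 10 (62.5%) had a ratio above 0, against 75.6% of all members and 51.4% of measured genes. In 13 of them the motif, with 10 bases before it, lay before the RefSeq start, and 7 of these were above 0. Each line gives 29 bases in the direction of the gene, 5′ to 3′, with the motif or its reverse complement in capitals, from the highest log2 ratio to the lowest.
Mrpl39: aaggagaggcGCGCATGCGcccccgcgtg
Mrpl44: agaagcacttGCGCACGCGcagtacacta
Mrpl12: attgtctccgCGCCTGCGCgtcgcaccgc
Mrpl22: gcctcggactGCGCATGCGtatagtcagc
Mrpl10: cccagctccaCGCATGCGCatagcggccc
Mrpl32: gcggacttaaCGCATGCGCtcagcccgcg
Mrpl32: tttgacccttGCGCATGCGcaagaggggc
Mrpl17: ccgagttactGCGCATGCGtcctctgaga
Mrpl17: aggctctgatGCGCACGCGcaaacgcggt
The stretch of Mrpl39 (chr16:84735351-84735379, minus strand) begins its motif 125 bases before the RefSeq start and belongs to the highest ratio of all members (2.74). GENCODE M21 begins Mrpl39 further upstream, at 84735742, so by that annotation the stretch lies inside the gene. It begins Mrpl17 at 105811099, within the first Mrpl17 stretch. For Mrpl32, on the minus strand, it gives a start at 14613165, so both Mrpl32 stretches lie inside that gene too. Mrpl17 (chr7:105811080-105811108 and chr7:105811118-105811146, minus strand) and Mrpl32 hold the motif at 2 places each, and their ratios were -0.69. Mrpl30 (ratio 0.68) and Mrpl45 (-0.09), whose stretches are not printed, also hold it at 2 places before the RefSeq start. A match describes letters only and is no evidence of binding.

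Within the large subunit, the stalk proteins were split. These proteins reach out from the ribosome to take in translation factors or to let used tRNA leave. Mrpl12, which forms the factor-binding stalk, stood at 18.9 FPKM in Cdk14-sh against 5.93 FPKM in Scramble control, 3.19-fold higher (2.30 to 4.59). Mrpl10, the anchor of Mrpl12, stood at 13.1 FPKM in Cdk14-sh against 15.9 FPKM in Scramble control, with an interval of the ratio of 0.639 to 1.07. Mrpl11, at the base of the same stalk, was 1.54-fold higher (1.21 to 1.98), at 10.4 FPKM in Cdk14-sh against 6.71 FPKM in Scramble control. Mrpl1, the protein of the opposite stalk at the tRNA exit site, was the lowest of all members, at 1.67 FPKM in Cdk14-sh against 4.34 FPKM in Scramble control, or 2.60-fold lower (1.74 to 3.86). It rests on 73 reads in Cdk14-sh and 190 in Scramble control, and the gene (ENSMUSG00000029486) is on the plus strand of chromosome 5.

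Proteins that line the peptidyl transferase centre, where peptide bonds form, differed by small amounts in either direction. Mrpl3 was 1.69-fold higher (1.41 to 2.03), at 9.74 FPKM in Cdk14-sh against 5.75 FPKM in Scramble control. Mrpl4, which also reaches into the exit tunnel, was 1.42-fold higher (1.23 to 1.64), and Mrpl16 1.32-fold higher. Mrpl2, a core protein at the junction of the subunits, was 1.39-fold lower (1.08 to 1.80), at 17.97 FPKM in Cdk14-sh against 25.003 FPKM in Scramble control. Mrpl27, whose bacterial counterpart touches the tRNA ends, was at 14.7 FPKM in Cdk14-sh against 17.5 FPKM in Scramble control, within counting error.

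Around the exit of the tunnel, where the chain leaves toward the inner membrane, 3 of 6 genes were at least 1.5-fold higher and 1 was at least 1.5-fold lower. Over all measured genes these shares were 25.3% and 24.5%, and 6 genes are too few to set against them. Mrpl47 was 5.28-fold higher (3.72 to 7.61), at 9.09 FPKM in Cdk14-sh against 1.72 FPKM in Scramble control. Mrpl22 followed at 6.81 FPKM in Cdk14-sh against 2.001 FPKM in Scramble control, 3.40-fold higher (1.64 to 7.72) from 68 reads in Cdk14-sh and 20 in Scramble control. Mrpl23 was 2.07-fold higher (1.70 to 2.53). Mrpl17, on the same face, lay at the other end and was 1.68-fold lower (1.48 to 1.92), at 9.64 FPKM in Cdk14-sh against 16.2 FPKM in Scramble control. Mrpl24 (17.9 FPKM in Cdk14-sh, 17.5 FPKM in Scramble control) and the membrane-facing Mrpl45 (9.99 FPKM in Cdk14-sh, 10.7 FPKM in Scramble control) had intervals that hold 1. Exons of Mrpl47 overlap opposite-strand genes over 24.2% of their bases, and those of Mrpl24 over 26.3%. Such overlap exceeds 10% for 14 members, among them Mrps25 (69.8%), Mrpl43 (33.4%), Mrps18b (30.5%) and Mrps27 (24.2%). Since it was not given whether counting used strand, the values of these members carry the same limit.

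The central protuberance, the crown of the large subunit that contacts the small subunit and tRNA, was the only one of the 8 subunit positions with a median below 0 (-0.12 over 6 genes), while its mean was 0.20. As grouped here it held 3 genes above 0 and 3 below, so the sign of its median depends on which genes are placed in it. Mrpl18 was 1.85-fold lower, with an interval up to 2.30, at 19.3 FPKM in Cdk14-sh against 35.6 FPKM in Scramble control. Mrpl55 was 1.66-fold lower (1.12 to 2.47), at 8.42 FPKM in Cdk14-sh against 13.96 FPKM in Scramble control. Mrpl46 was 1.36-fold lower (1.10 to 1.68), at 21.2 FPKM in Cdk14-sh against 28.9 FPKM in Scramble control. Against these stood Mrpl40, 12.7-fold higher (6.14 to 33.6), at 10.3 FPKM in Cdk14-sh against 0.809 FPKM in Scramble control. Mrpl40 rests on 14.5 recovered reads in Scramble control. Mrpl48 was 1.26-fold higher (1.08 to 1.48) and Mrpl38 at 16.6 FPKM in Cdk14-sh against 14.4 FPKM in Scramble control. The group's summed level was 84.3 FPKM in Cdk14-sh and 100 FPKM in Scramble control.

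The other bacterial homologs of the large subunit were nearly all higher, with 13 of 14 above 0 and a median of 0.64. Of the 14, 8 were at least 1.5-fold higher, against 25.3% of measured genes. Mrpl34, one of the smallest ribosomal proteins, lies on chromosome 8 and stood at 58.6 FPKM in Cdk14-sh against 17.95 FPKM in Scramble control, 3.26-fold higher (2.39 to 4.45). Mrpl13 was 3.98-fold higher (2.97 to 5.43), at 5.61 FPKM in Cdk14-sh against 1.41 FPKM in Scramble control. Mrpl19 was 3.86-fold higher (2.82 to 5.38), at 6.96 FPKM in Cdk14-sh against 1.80 FPKM in Scramble control, and its exons overlap opposite-strand genes over 36% of their bases. Mrpl35 was 2.61-fold higher (1.98 to 3.46). Mrpl9, Mrpl15, Mrpl28, Mrpl30 and Mrpl36 were between 1.51-fold (Mrpl28) and 1.86-fold (Mrpl9) higher. Mrpl14, Mrpl20, Mrpl21 and Mrpl33 were between 1.11-fold (Mrpl33) and 1.31-fold (Mrpl14) higher, and counting intervals held 1 for Mrpl21 and Mrpl33. The exception was Mrpl32, which the m-AAA protease of the inner membrane must trim before it joins the ribosome. It was the most abundant large subunit gene of Scramble control and stood at 50.2 FPKM in Cdk14-sh against 81.5 FPKM in Scramble control, 1.63-fold lower (1.52 to 1.75).

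Among the other mitochondria-specific proteins of the large subunit, 9 of 14 were above 0, with a median of 0.40. The highest member of all was Mrpl39, a protein of the synthetase-like fold on the ribosome's surface, at 9.04 FPKM in Cdk14-sh against 0.504 FPKM in Scramble control. That is 17.9-fold (7.80 to 42.2), from 233 reads in Cdk14-sh and 13 in Scramble control. The gene (ENSMUSG00000022889) lies on chromosome 16, minus strand. Mrpl44, a protein with a ribonuclease III-like fold, had a ratio of 95.6 (8.22 to 1937), with 95.5 reads recovered for Cdk14-sh and 1 for Scramble control. Its size is therefore poorly fixed. Mrpl42 was the most abundant large subunit gene of Cdk14-sh, at 83.8 FPKM against 48.5 FPKM in Scramble control, 1.73-fold higher (1.59 to 1.88). Mrpl37 was 1.85-fold higher (1.42 to 2.42), and Mrpl58, a peptidyl-tRNA hydrolase built into the ribosome that frees stalled chains, was 1.68-fold higher (1.25 to 2.27). Mrpl41, Mrpl43 and Mrpl52 were 1.47-fold, 1.47-fold and 1.21-fold higher, beyond counting error, and Mrpl51 was 1.24-fold higher with an interval that reached 0.996. Mrpl50 was 1.70-fold lower (1.48 to 1.97), at 28.7 FPKM in Cdk14-sh against 48.8 FPKM in Scramble control. Mrpl49 was 1.26-fold lower (1.00 to 1.58). Mrpl53, Mrpl54 and Mrpl57 were within counting error, and another gene on the same strand covers 88.0% of the exonic bases of Mrpl53, so its value is uncertain.

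**Figure D3:**
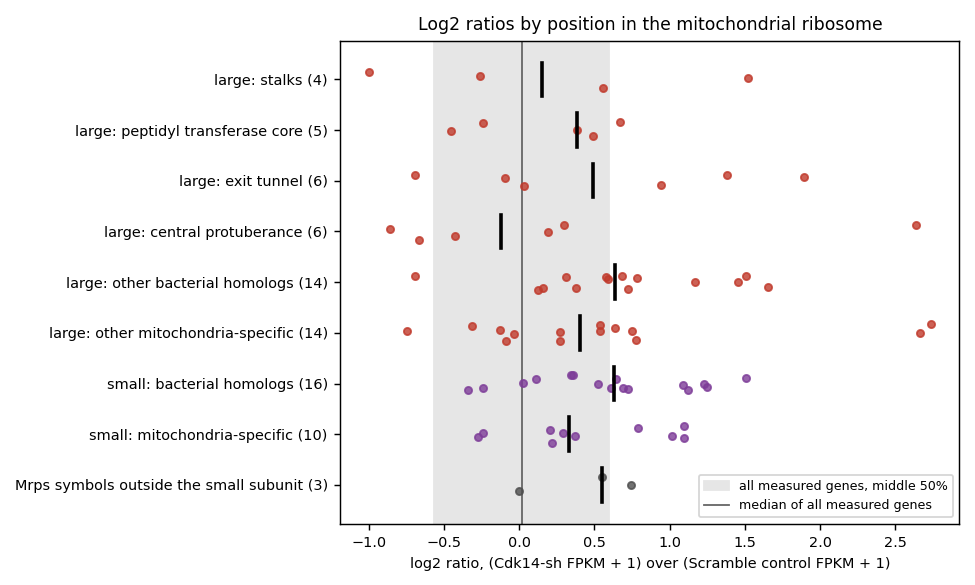
Log2 ratio of each member by its place in the mitochondrial ribosome, with the number of genes in parentheses. Black bars are group medians, the grey band is the middle 50% of all measured genes, and the thin line is their median (0.02). As grouped here, the central protuberance has a median of -0.12, with 3 genes above 0 and 3 below, and the medians of the other groups lie above 0.

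Small subunit proteins with bacterial homologs had a median of 0.63, with 14 of 16 above 0. Of the 16, 9 were at least 1.5-fold higher, against 25.3% of measured genes. Mrps24, the counterpart of a bacterial protein at the messenger's entry channel, was the highest of the small subunit, at 41.5 FPKM in Cdk14-sh against 13.96 FPKM in Scramble control, or 2.97-fold (2.38 to 3.76). It lies on chromosome 11 and shares 15.4% of its exonic bases with another gene on its strand. Mrps10, a protein of the subunit's head, was 3.58-fold higher (2.56 to 5.10), at 3.92 FPKM in Cdk14-sh against 1.09 FPKM in Scramble control. Mrps16 was 2.48-fold higher (2.09 to 2.94), at 33.2 FPKM in Cdk14-sh against 13.4 FPKM in Scramble control. Mrps12, which sits at the decoding centre where codon and anticodon are matched, was 2.34-fold higher (1.59 to 3.49), at 17.2 FPKM in Cdk14-sh against 7.36 FPKM in Scramble control. Mrps5, Mrps11, Mrps15, Mrps17 and Mrps21 were between 1.57-fold (Mrps15) and 1.76-fold (Mrps17) higher. Mrps9 and Mrps28 were 1.36-fold and 1.29-fold higher, with intervals that begin at 1.01 and 1.02, and Mrps2 and Mrps14 were within it.

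The bacterial homologs of the small subunit that were below 0 were abundant genes. Mrps6, the most abundant of all members, stood at 92.1 FPKM in Cdk14-sh against 109 FPKM in Scramble control, 1.18-fold lower (1.07 to 1.31). It shares 19.9% of its exonic bases with another gene on its strand. Mrps7, a protein of the subunit's head, was 1.27-fold lower (1.11 to 1.46), at 35.4 FPKM in Cdk14-sh against 45.1 FPKM in Scramble control. These were the 2 small subunit genes whose interval lay below 1, against 19 whose interval lay above 1. No such counts were made over all measured genes.

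Mitochondria-specific proteins of the small subunit had a median of 0.33, with 8 of 10 above 0. Mrps31 was 3.56-fold higher (1.86 to 6.74) from 27 reads in Scramble control, and Mrps26 was 2.51-fold higher (1.88 to 3.37). Mrps27, a pentatricopeptide repeat protein of the RNA-binding kind, was 2.20-fold higher (1.60 to 3.01), at 12.5 FPKM in Cdk14-sh against 5.68 FPKM in Scramble control. Mrps33 was 1.76-fold higher (1.47 to 2.10), at 41.6 FPKM in Cdk14-sh against 23.7 FPKM in Scramble control. Mrps34 was 1.32-fold higher (1.04 to 1.69); its exons overlap other genes over 37.0% of their bases on its own strand and 63.4% on the other. Mrps22, Mrps23 and Mrps25 were within counting error. The lowest was Mrps35, at 2.35 FPKM in Cdk14-sh against 3.05 FPKM in Scramble control (interval of the ratio 0.589 to 1.00).

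The 3 paralogs Mrps18a, Mrps18b and Mrps18c are relatives of a single bacterial protein, although Mrps18b was grouped here with the mitochondria-specific proteins. Their ratios differed. Mrps18c was 2.21-fold higher, at 27.6 FPKM in Cdk14-sh against 12.5 FPKM in Scramble control, with 23.2% of exonic bases shared with another gene on its strand. Mrps18b stood at 10.7 FPKM in Cdk14-sh against 12.8 FPKM in Scramble control, with an interval of the ratio of 0.642 to 1.08. Mrps18a stood at 9.80 FPKM in Cdk14-sh against 9.79 FPKM in Scramble control, 368 reads in each library. The interval of Mrps18c began at 1.66, above the upper ends for Mrps18b (1.08) and Mrps18a (1.23).

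Some symbols do not match the subunit in which the protein is found. Mrps18a and Mrps30 are part of the large subunit in structures of the mammalian ribosome, and Mrps36 is a component of the alpha-ketoglutarate dehydrogenase complex. Mrps30 was 1.71-fold higher (1.55 to 1.89), at 32.1 FPKM in Cdk14-sh against 18.8 FPKM in Scramble control, and Mrps36 was 1.49-fold higher (1.16 to 1.92). With the subunits taken from structure, the median was 0.38 over 51 large subunit genes and 0.57 over 26 small subunit genes. Of ribosomal proteins whose symbols lack the Mrp prefix, 4 of 5 were above 0. The small subunit protein Chchd1 was 4.38-fold higher (3.10 to 6.25), at 39.6 FPKM in Cdk14-sh against 9.03 FPKM in Scramble control. The GTP-binding Dap3 was 1.64-fold higher (1.40 to 1.92), Aurkaip1 1.39-fold higher (1.19 to 1.62) and the large subunit protein Gadd45gip1 1.36-fold higher (1.05 to 1.79). Exons of Gadd45gip1 overlap opposite-strand genes over 42.0% of their bases. Ptcd3, a pentatricopeptide repeat protein, was at 9.88 FPKM in Cdk14-sh against 12.5 FPKM in Scramble control.

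Descent from bacteria did not separate the members clearly. Over both subunits, 36 of 46 bacterial homologs were above 0, with a median of 0.57 and a mean of 0.50. Of 31 mitochondria-specific proteins, 22 were above 0, with a median of 0.29 and a mean of 0.51, so the medians differ and the means do not. Members with longer exonic sequence were more often higher: 33 of 39 above the median length were above 0, against 26 of 39 at or below it. Among all measured genes the longer ones were above 0 in 4296 of 8591 and the shorter ones in 54.4%.

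A protein-coding gene starts on the opposite strand within 1000 bases of the start of 33 members, and 24 of these partners were measured. These form 23 distinct pairs, since Mrps11 and Mrpl46 are each other's partners. The log2 ratios of a pair had the same sign in 14 and opposite signs in 9. Of the 24 partners, 15 were themselves above 0, against 51.4% of measured genes. Signs were not compared in other gene pairs, so the count of 14 has no baseline and shows no link within pairs. Mrps11 and Mrpl46, on chromosome 7, had opposite signs. Mrps11 stood at 13.1 FPKM in Cdk14-sh against 8.02 FPKM in Scramble control, 1.63-fold higher (1.24 to 2.15), and Mrpl46 was lower, as given with the central protuberance. Mrpl32 and its partner Psma2, a proteasome subunit at 154 FPKM in Cdk14-sh against 209 FPKM in Scramble control, were both lower. Mrps27 and its partner Ptcd2, a mitochondrial RNA-binding protein at 5.75 FPKM in Cdk14-sh against 0.117 FPKM in Scramble control, were both higher. Mrpl49 was lower while its partner Fau, which encodes a cytosolic ribosomal protein, was at 690 FPKM in Cdk14-sh against 543 FPKM in Scramble control.

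Genes that build or serve the mitochondrial ribosome had lower medians than its protein genes, a difference that was not tested. Of 18 measured genes (23 listed) for assembly and ribosomal RNA modification, 7 were above 0, with a median of -0.29. That share was 38.9%, against 51.4% of all measured genes. The filter left out Mtg1 (log2 ratio 1.35), Noa1 (1.07), Rpusd3 (0.22), Tfb1m (0.11) and Trub2 (-0.16). Most of these were above 0, so the size of this median depends on the filter. At the top were Mpv17l2 (11.2-fold higher, 6.48 to 23.1), the small subunit assembly factor Rbfa (4.92-fold, 3.19 to 7.77) and Fastkd2 (3.32-fold, 2.51 to 4.44). Exons of Rbfa overlap opposite-strand genes over 43.9% of their bases. At the bottom were Eral1, the chaperone of the small subunit's RNA, at 0.607 FPKM in Cdk14-sh against 12.2 FPKM in Scramble control, the RNA methyltransferase gene Nsun4 (4.30-fold lower, 3.28 to 5.71) and Ngrn (2.56-fold lower, 1.97 to 3.34). Of 14 measured translation factors, 6 (42.9%) were above 0, with a median of -0.14. The highest were the release factor Mtrf1l (2.71 FPKM in Cdk14-sh against 0.0602 FPKM in Scramble control, from 2 reads), the messenger-binding Lrpprc (2.05-fold, 1.66 to 2.55) and the elongation factor Tufm (1.45-fold, 1.21 to 1.73). The lowest were the ribosome recycling factor Mrrf (2.46-fold lower, 2.02 to 3.02), Guf1 (2.09-fold lower, 1.70 to 2.60) and the initiator tRNA formyltransferase Mtfmt (1.91-fold lower, 1.49 to 2.47).

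Of 13 measured synthetases that charge mitochondrial tRNAs (16 listed), 9 were above 0 (51.4% of measured genes), with a median of 0.24. On this list 2, Gars and Kars, also serve the cytosol. The filter left out Nars2 and Mars2, with ratios above 0, and Vars2, with a ratio below 0. Named genes ran from Fars2 (4.89-fold higher, 3.90 to 6.18) and Cars2 (2.28-fold, 1.77 to 2.96) to Hars2 (1.75-fold lower), Gars (1.84-fold lower) and Ears2 (2.71-fold lower). Genes for transcription and replication of mitochondrial DNA were above 0 in 6 of 11 (54.5%), near the share of measured genes, with a median of 0.16. Their highest were Top1mt (3.51 FPKM in Cdk14-sh against 0.0516 FPKM in Scramble control), the RNA polymerase Polrmt (6.21-fold, 2.75 to 14.4) and the DNA polymerase Polg (2.02-fold, 1.53 to 2.66). Top1mt rests on 1.1 recovered reads in Scramble control, with an interval of the ratio of 6.25 to 1502. Their lowest were Mgme1 (3.20-fold lower), Tfb2m (1.86-fold lower) and Mterf1a at 0.938 FPKM in Cdk14-sh against 1.44 FPKM in Scramble control.

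Regulators of mitochondrial biogenesis were split, with 3 of 9 above 0 (51.4% of measured genes) and a median of -0.13. The nuclear receptor Esrra was 3.45-fold higher (2.17 to 5.80), at 3.60 FPKM in Cdk14-sh against 1.04 FPKM in Scramble control. The ETS factor Gabpa was 2.03-fold higher (1.77 to 2.34), at 20.7 FPKM in Cdk14-sh against 10.2 FPKM in Scramble control, and Nrf1 was 1.68-fold higher (1.38 to 2.04), at 5.31 FPKM in Cdk14-sh against 3.16 FPKM in Scramble control. The lowest were the coactivator Ppargc1a (1.64-fold lower), the factor Yy1 (1.32-fold lower) and the coactivator Ppargc1b (1.82 FPKM in Cdk14-sh against 2.29 FPKM in Scramble control).

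Lists of other mitochondrial proteins had medians close to that of the ribosomal members. For import and chaperone genes the median was 0.48, with 19 of 28 above 0 (51.4% of measured genes). It ran from Timm22 (10.5-fold higher, 6.72 to 17.4), the chaperone Hspd1 (2.95-fold, 2.70 to 3.22) and Timm13 (2.93-fold, 2.45 to 3.53) to Tomm5 (1.64-fold lower), Timm17b (interval 1.47 to 2.73-fold lower) and Tomm34 (2.15-fold lower). For 16 genes used as signs of mitochondrial mass the median was 0.46, with 12 above 0, from Mfn1 (2.18-fold higher) and Vdac1 (1.97-fold) to Fh1, Idh2 and Opa1 (1.58-fold lower). Citrate synthase (Cs), also on that list, was at 39.5 FPKM in Cdk14-sh against 36.9 FPKM in Scramble control. Nuclear genes of the respiratory chain and ATP synthase had a median of 0.43, with 59 of 73 above 0. Cytosolic ribosomal proteins had a median of 0.61, with 75 of 76 above 0 and a range of -0.17 to 1.17, a narrower spread than that of the mitochondrial ribosomal members, whose highest was 2.74. No test of the differences between these lists was possible.

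**Figure D4:**
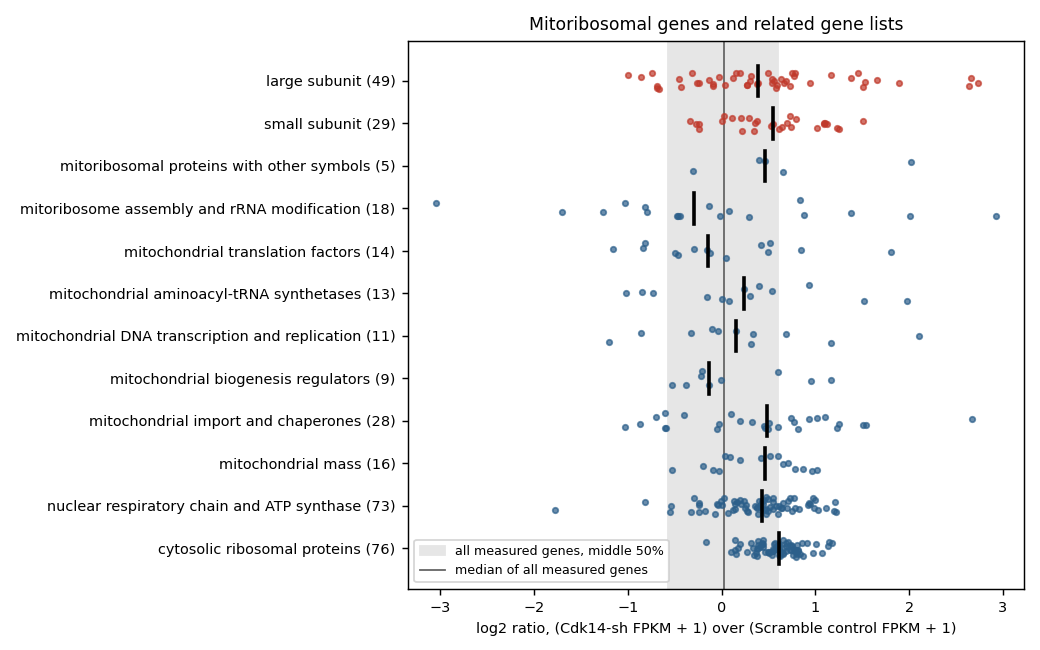
Log2 ratio of each measured gene in the large and small mitochondrial ribosomal subunits (red) and in related lists (blue), with the number of genes in parentheses; black bars are medians, the grey band is the middle 50% of all measured genes and the thin line their median. Medians run from -0.29 for assembly genes to 0.61 for cytosolic ribosomal proteins, and mitochondrial ribosomal members spread more widely than the cytosolic ones.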

How the data were processed

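Messenger RNA of 2 libraries was measured, 1 with the Cdk14 hairpin and 1 with the scrambled hairpin. Bowtie 0.12.2 and featureCounts (Subread 1.5.1) are named in the submitters' processing notes. The notes name the builds mm8 and GRCm38 without a role. The authors deposited FPKM values, that is, reads scaled to gene length and library total. Whether counting used strand, and how reads with several matches were treated, was not given in the sources used here.

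Reads were recovered as FPKM times the exonic length of GENCODE M21 (GRCm38), divided by the commonest low product, taken as 2 reads. Totals came to 10177185 reads for Cdk14-sh and 10186924 for Scramble control. Within 0.01 reads, 80.7% of the Cdk14-sh values and 81.1% of the Scramble control values were multiples of 0.5 reads, and the other read numbers are approximate. Of the whole read numbers, 67.2% in Cdk14-sh and 70.7% in Scramble control were even, so 2 reads counted as 1 fragment. Intervals (95%, exact Clopper-Pearson) were computed on each fragment share, turned into a ratio, and cover counting error only.

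Log2 ratios used a pseudocount of 1 FPKM, which understates differences of low genes, and a gene counted as measured when its mean reached 1 FPKM. Where a symbol occurred more than once, the entry of highest mean was kept. Members and lists were chosen with earlier results of these data known. Every member may be named; those given in full are the 6 highest and 6 lowest log2 ratios of the large subunit, the 4 highest and 4 lowest of the small subunit, the Mrps18 paralogs, and the 3 highest and 3 lowest measured genes of each mitochondrial list, some of which are not reported here. Promoters were matched by symbol, and the motifs were chosen, and the NRF1 and YY1 motifs shortened by 1 letter, after the data were seen. The functions were tested on simulated data. Python 3.11.15, pandas 2.3.3, numpy 2.4.6 and SciPy 1.17.1 were used. Alternatives were 2 other pseudocounts, 2 other filters, 3 scalings, summed symbols, subunits by structure, a length and GC correction, and 2 that leave members out, added after seeing the data.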

Additional observations from a re-analysis of the deposited data

How the results depend on the processing

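Under all 12 alternatives the medians stayed above 0, from 0.30 to 0.49 for the large subunit and from 0.44 to 0.65 for the small subunit, and the difference, large minus small, stayed below 0, from -0.31 (mean of at least 5 FPKM) to -0.08 (length and GC correction). Members above 0 ranged from 47, of the 64 left with a mean of at least 5 FPKM, to 59 of 78. Between 22 (pseudocount of 5 FPKM) and 36 (pseudocount of 0.1 FPKM) were at least 1.5-fold higher. With a pseudocount of 5 FPKM, 3 members were at least 1.5-fold lower, against 6 as reported, since that pseudocount shrinks ratios. Mrpl24, Mrps2 and Mrps18a changed sign among the alternatives, and 56 members stayed above 0 and 19 below 0. Without the 3 members under 20 reads, 56 of 75 were above 0, and without members sharing over 10% of exonic bases 48 of 60. Both of these were chosen after seeing the data. No paired analysis was possible because each group holds 1 library, and for the same reason no library could be left out. Members with few reads have wide intervals: Mrpl44, Mrpl39 and Mrpl40 had 1, 13 and 14.5 reads in Scramble control.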

Other observations

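Pseudogenes with -ps symbols were left out of the members, and 3 are in the table. Mrpl23-ps1 stood at 13.2 FPKM in Cdk14-sh and 7.79 FPKM in Scramble control, beside its parent Mrpl23 at 12.8 FPKM in Cdk14-sh and 6.15 FPKM in Scramble control. Mrpl48-ps stood at 4.02 FPKM in Cdk14-sh and 3.40 FPKM in Scramble control, and Mrps36-ps2 at 1.27 FPKM in each library. How reads matching both a parent and its copy were counted was not given in the sources used here.

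Other marker lists give the makeup of the libraries beside which the members were read. Luminal markers summed to 678 FPKM in Cdk14-sh and 1232 FPKM in Scramble control over 10 listed genes, a sum set by Krt8, Krt18 and Epcam. The other direction was seen in 6 of the 10, Esr1, Prlr, Pgr, Kit, Krt19 and Cldn4, with Krt19 at 42.9 FPKM in Cdk14-sh and 20.5 FPKM in Scramble control. Fibroblast markers summed to 76.7 FPKM in Cdk14-sh and 114 FPKM in Scramble control over 5, a sum carried by Dcn (41.2 FPKM in Cdk14-sh, 104 FPKM in Scramble control), and the other 4, Col1a1, Col1a2, Col3a1 and Fbln1, were higher in Cdk14-sh. Fabp4 was the adipocyte marker with a value, at 8.45 FPKM in Cdk14-sh and 94.3 FPKM in Scramble control. Retina markers with a value were Gnat1 and Opn1sw, which summed to 1.78 FPKM in Cdk14-sh and 3.47 FPKM in Scramble control.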
